A study of Mus musculus with 6 samples.

Results

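A set of 9 genes was followed through droplet libraries of mouse brain myeloid cells, 8 that encode selenoproteins (Selenop, Selenok, Selenof, Selenow, Gpx1, Gpx3, Gpx4 and Txnrd1) and Ccdc152, whose last exon lies on the strand opposite the end of Selenop. They are 9 of the 32285 genes in the count tables and were found by symbol. Ccdc152 was selected on its higher count of UMIs (unique molecular identifiers, counted once per captured molecule) with the newer capture kit, so its difference between kits is a description and was not tested.

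The libraries came from the whole brains of 3 male C57BL/6J mice at postnatal day 89, dissociated by cold Dounce homogenization and sorted for live cells positive for CD45 and CD11b. Cells of each mouse were captured once with the 10x Genomics 3′ kit V3.0 and once with V3.1, which gave 6 libraries. Mouse 2 was processed with a cocktail of inhibitors of transcription and translation (actinomycin D, triptolide and anisomycin), and mice 1 and 3 without it. The V3.0 kit was run on Chip B with the original Chromium controller and V3.1 on Chip G with the NextGEM controller, so chemistry, chip and instrument cannot be told apart. The condition with inhibitors rests on 1 animal, and the kit comparison on 3 animals.

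The libraries held between 6275898 and 18872816 UMIs. In the V3.0 library of mouse 3, 21.5% of barcodes passed the filter on cells, against 70.0% to 76.8% in the other 5, and the main kit values are also given without this library. Of 19725 passing cells, counts of marker genes put 18891 in microglia, 82 in border macrophages (the macrophages of the meninges and perivascular spaces), 265 in neutrophils and 167 in monocytes, and 320 in no class. These names rest on the markers alone, none of which is among the 9 genes. All 10 microglial, all 10 border macrophage and all 12 neutrophil markers had UMIs in the class gated on them, which the gate itself favours. UMIs of all 10 border macrophage and all 12 neutrophil markers were also found in the gated microglia. The median was 3513 UMIs per cell in microglia, 4208.5 in border macrophages and 5847 in neutrophils. Mouse 2 gave 47 of the 82 border macrophages, and 5 of them came from the V3.0 library of mouse 3. Across the libraries, 98 barcode sequences occurred more than once.

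Selenoproteins carry the amino acid selenocysteine, which is inserted at UGA codons that would otherwise end translation. Most of those with a known reaction are antioxidant or redox enzymes, among them the glutathione peroxidases and thioredoxin reductases. Selenoprotein P, made from Selenop, is unusual in holding many selenocysteines; it is secreted and carries selenium to other cells, and the brain depends on its uptake through the receptor Lrp8. Ccdc152 encodes a little studied coiled-coil protein.

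Selenop (ENSMUSG00000064373) lies at chr15:3268547-3280508 on the plus strand of GRCm38, and Ccdc152 (ENSMUSG00000091119) at chr15:3280070-3303526 on the minus strand. The genes meet tail to tail: their last exons share 439 bases at chr15:3280070-3280508, a stretch that is 3′ UTR in both. Of 7 annotated Selenop transcripts 2 reach into it, and of 3 annotated Ccdc152 transcripts 1 does. The next Ccdc152 transcript ends 118 bases beyond the end of Selenop. The 3′ kits prime on runs of A, so the last 30 bases of the overlapping transcripts are shown, read from the GENCODE vM21 transcripts, with the polyadenylation signal AATAAA and a run of 10 A in capitals.
Selenop-201, chr15:3280479-3280508, plus strand: atcaaAATAAAtgcaattttaaaacctttc
Ccdc152-202, chr15:3280070-3280099, minus strand: agAAAAAAAAAActggaaaatatgtctttg
Only the strand of each transcript was searched. AATAAA occurs in the last 30 bases of 35.5% of 58793 protein-coding transcripts, and a run of 10 A in 1.11%. Within the shared 439 bases the longest run of A was 4 on the Selenop strand and 10 on the Ccdc152 strand. Among the last 439 bases of the annotated protein-coding transcripts of that length, 3.89% held a run of 10 A. Whether the counting took the strand of a read into account is not given in the sources used here, so UMIs from the shared bases cannot be assigned with certainty to either gene.

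Between the kits, microglial Selenop did not differ by call, while Ccdc152 stood at 4.74 times its V3.0 mean with V3.1. Selenop was at 1557, 1742 and 1558 CPM (UMI counts scaled by the total of the cell type in a library) in mice 1, 2 and 3 with V3.0, and at 1595, 1649 and 1524 CPM with V3.1. The ranges of the kits overlapped, with means of 1619 ± 106 and 1589 ± 63.0 CPM (SD, n = 3 libraries). The log2 fold change of Selenop was −0.01 (SE 0.07, adjusted p = 0.947, edgeR). Ccdc152 was at 39.0, 32.1 and 78.4 CPM with V3.0 and at 266, 221 and 221 CPM with V3.1. All V3.1 libraries were above all V3.0 libraries, and the highest V3.0 level was that of mouse 3, the library with few passing cells. The means were 49.8 ± 25.0 and 236 ± 25.5 CPM (SD, n = 3), and within mice 1, 2 and 3 the V3.1 level was 6.82, 6.90 and 2.82 times the V3.0 level. Without the V3.0 library of mouse 3 the ratio of means was 6.64. With the same threshold, 3.06% of the 12014 genes tested were called between the kits, and the 3 V3.0 and 3 V3.1 levels of 33.2% did not overlap. Markers of astrocytes also separated the kits in microglia, at 237 to 239 CPM with V3.0 and 205 to 217 CPM with V3.1 for the sum of 5 genes. The part of such other RNA in the Ccdc152 difference was not tested.

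**Figure D1:**
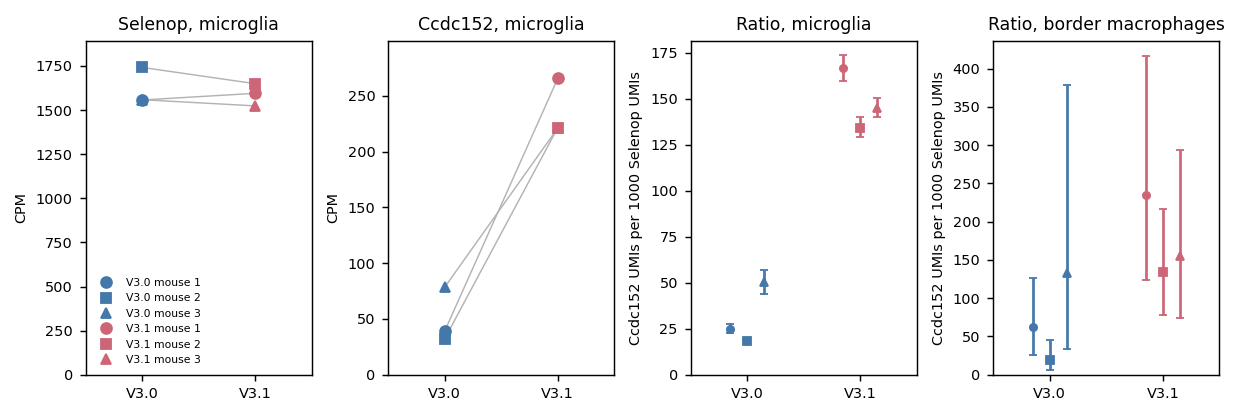
Selenop and Ccdc152 in microglia (CPM, left panels, lines join the libraries of a mouse) and the Ccdc152 UMIs per 1000 Selenop UMIs in microglia and border macrophages (right panels, bars are exact 95% binomial counting intervals), for the 6 libraries. Selenop ran from 1524 to 1742 CPM in both kits, while the microglial ratio was 18.4 to 50.3 with V3.0 and 134 to 167 with V3.1.

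The ratio of UMIs of the overlapping genes within a library does not depend on scaling. For every 1000 Selenop UMIs in microglia, V3.0 libraries held 25.0 (95% exact interval 22.9 to 27.3), 18.4 (16.8 to 20.2) and 50.3 (44.1 to 57.1) Ccdc152 UMIs in mice 1, 2 and 3. V3.1 libraries held 167 (160 to 174), 134 (129 to 140) and 145 (140 to 150). Within V3.0 the value of mouse 3 was the highest. The means were 31.2 ± 16.8 and 149 ± 16.4 (SD, n = 3 libraries), a ratio of 4.76, and 6.84 without the V3.0 library of mouse 3. The intervals cover counting error only.

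Border macrophages held far fewer counts, and their ratio of UMIs was higher with V3.1 in each mouse. In the V3.0 libraries of mice 1, 2 and 3 there were 8 Ccdc152 UMIs to 129 of Selenop, 5 to 259 and 4 to 30. The V3.1 libraries held 15 to 64, 19 to 142 and 11 to 71. Pooled, this was 40.7 Ccdc152 UMIs per 1000 Selenop UMIs (23.5 to 65.9) with V3.0 and 162 (116 to 223) with V3.1. The V3.0 value of mouse 3 rested on 5 cells, with an interval of 34.1 to 378 per 1000. The V3.1 UMIs of Ccdc152 sat in 4, 9 and 4 cells of mice 1, 2 and 3. The share of border macrophages with a Ccdc152 UMI, thinned to 2000 UMIs, was 36.4%, 6.67% and 20% with V3.0 and 33.3%, 23.5% and 0% with V3.1, so it was higher with V3.1 in mouse 2 alone; unthinned it was 45.5%, 16.7% and 60% against 44.4%, 52.9% and 40%. Neutrophils gave 2 Ccdc152 UMIs to 30 of Selenop with V3.0 and 3 to 29 with V3.1, too few to compare.

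Within microglia, Ccdc152 was found more often in cells with more Selenop. Cells were thinned to 2000 UMIs each so that depth was equal, which left out 736 of the 18891. Selenop then had a UMI in 92.1% to 94.1% of cells per library. Ccdc152 had one in 6.23% to 13% of cells with V3.0 (6.23% and 7.10% without the library of mouse 3) and in 29.2% to 34.2% with V3.1; unthinned, these shares were 10.0% to 22.5% and 42.3% to 47.5%. In neutrophils, thinned in the same way, 1.85% to 13.7% of cells per library had a Selenop UMI and at most 1.961% one of Ccdc152. With V3.1, the share of microglia with a Ccdc152 UMI was 17.5% to 21.3% in cells without Selenop UMIs and 42.6% to 50.7% in cells with 6 or more. With V3.0 these shares were 2.07% to 4.60% and 8.91% to 18.4%. The per-cell correlation of the 2 counts was 0.18 to 0.23 in the V3.1 libraries and 0.04 to 0.10 in the V3.0 libraries, over 876 to 4318 cells of a library that share depth and preparation. Selenop itself averaged 3.04 to 3.44 UMIs per thinned cell, with a median of 3 and a highest value of 20. Its variance was 1.39 to 1.56 times the mean, and 5.94% to 7.89% of cells had none, where a Poisson spread around these means would leave 3.21% to 4.77%.

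**Figure D2:**
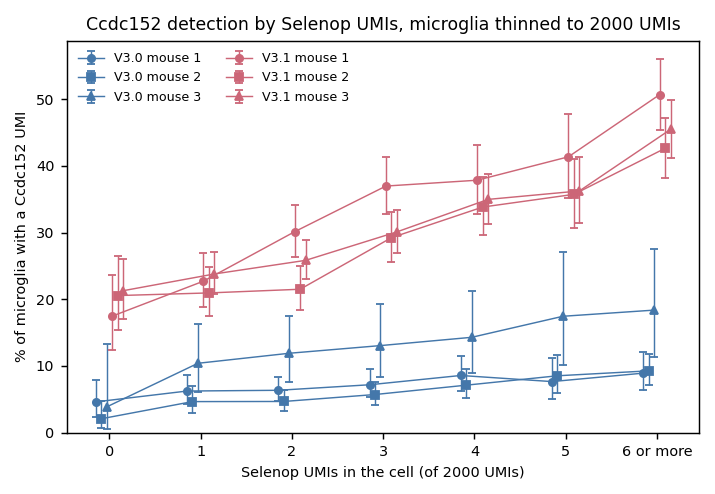
Share of microglia with at least 1 Ccdc152 UMI (y axis, %) by the number of Selenop UMIs in the same cell (x axis), each cell thinned to 2000 UMIs, per library; bars are exact 95% binomial intervals. At 6 or more Selenop UMIs the share was 42.6% to 50.7% with V3.1 and 8.91% to 18.4% with V3.0.

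The other selenoprotein genes showed no called kit difference in microglia. Of the 8 selenoprotein genes, 7 passed the filter on low counts and none was called by edgeR or DESeq2. An unadjusted edgeR p under 0.05 was reached by 1 of the 7, and by 3542 of all 12014 genes tested. Gpx3, the secreted plasma form of glutathione peroxidase, had 10 UMIs in 18891 microglia and could not be tested. Txnrd1, the cytosolic thioredoxin reductase, came nearest, at 26.8, 25.9 and 23.6 CPM in mice 1, 2 and 3 with V3.0 and 34.4, 35.5 and 33.3 CPM with V3.1. Its kits did not overlap. The log2 fold change of Txnrd1 was 0.43 (SE 0.09, adjusted p = 0.00661), which is below the limit of 0.58 on the fold. An adjusted p under 0.05, without that limit, was reached by 13.7% of genes. The adjusted p of Txnrd1 was 0.0502 without mouse 1 and 0.0856 without mouse 2. For the others the log2 fold change was 0.16 (SE 0.08, adjusted p = 0.191) for Selenof, 0.13 (SE 0.10, adjusted p = 0.421) for Selenow and 0.03 (SE 0.07, adjusted p = 0.782) for Selenok. The peroxidases Gpx1 (−0.02, SE 0.08, adjusted p = 0.898) and Gpx4 (0.02, SE 0.08, adjusted p = 0.920) lay closest to 0 after Selenop.

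The wider pathway gave few calls between kits. Of the 24 mouse selenoprotein genes, 18 were tested and none was called by edgeR or DESeq2. An unadjusted edgeR p under 0.05 was reached by 4 of the 18, and by 3542 of all 12014 genes. None was called without the V3.0 library of mouse 3. The median log2 fold change was 0.01, against 0.001 for all genes. Of 8 genes for making and inserting selenocysteine, all tested, 1 was called: Scly, the lyase that frees selenium from selenocysteine, was lower with V3.1 (log2 fold change −0.67, SE 0.15, adjusted p = 0.0131), where 1.5% of all genes were called lower, and by −0.67 (adjusted p = 0.0369) without the V3.0 library of mouse 3. Scly was at 12.8, 13.6 and 13.1 CPM with V3.0 and at 6.91, 7.35 and 9.87 CPM with V3.1. The median of that list was 0.11. A list of 24 thioredoxin, peroxiredoxin, glutathione and related antioxidant genes without selenocysteine had 21 tested, with a median of 0.03. Of the 21, 1 was called, a share near the 3.06% of all genes. This was Sod1, the cytosolic superoxide dismutase, at 34.5, 26.7 and 40.7 CPM with V3.0 and 62.1, 54.5 and 52.1 CPM with V3.1 (log2 fold change 0.80, SE 0.12, adjusted p = 0.00138), or 0.89 (adjusted p = 0.00285) without the V3.0 library of mouse 3. Of the selenoprotein P receptors, Lrp1 alone was tested by kit (−0.01) and was not called, with an unadjusted p above 0.05 and no call by DESeq2.

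Ccdc152 was not the only gene opposite an abundant microglial transcript that took more UMIs with V3.1. Among the 200 genes with the highest microglial CPM, 43 pairs were found in which another gene's exons overlapped on the opposite strand, 9 of them tail to tail like Selenop and Ccdc152. Leaving out Ccdc152, 37 of these opposite-strand genes were tested and 6 were called, all higher with V3.1, where 1.56% of all genes were called higher. The median log2 fold change of the 37 was 0.12, against 0.001 for all genes. None of the 6 called met its partner tail to tail, as Ccdc152 does. Among the 6, Grtp1 and Gm37401 passed the filter on low counts only through their V3.1 libraries. DESeq2 called 4, and 5 were called without the V3.0 library of mouse 3, where Gm47123 was lost. With the mouse as a block, 8 were called, and 2.3% of all genes were called higher.

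The largest of these was AY036118 (log2 fold change 3.37, SE 0.13, adjusted p = 1.17e-08), opposite Gm42418, a locus with ribosomal RNA sequence where counts are uncertain. Gm42418 itself was not level, with 13853 microglial UMIs in the V3.0 libraries and 77572 in the V3.1 libraries. Per 1000 Gm42418 UMIs there were 50.2 UMIs of AY036118 with V3.0 and 112 with V3.1. Gm15655, opposite the transcription factor gene Maf, was at 9.02, 8.70 and 15.5 CPM with V3.0 and 64.3, 50.8 and 45.9 CPM with V3.1 (log2 fold change 2.45, SE 0.17, adjusted p = 4.82e-06). Per 1000 Maf UMIs there were 8.02 and 40.5 UMIs of Gm15655, and Maf itself was not called (log2 fold change 0.10, adjusted p = 0.380). As for Ccdc152, the V3.0 library of mouse 3 was the highest of its kit, and without it the log2 fold change of Gm15655 was 2.60 (adjusted p = 6.65e-06). The others called were Grtp1 (2.88, adjusted p = 0.00126), Gm37401 (2.44, adjusted p = 0.00618), Teddm2 (1.26, adjusted p = 0.0195) and Gm47123 (0.78, adjusted p = 0.0324). These 4 were sparse, at mean levels of 1.24, 0.781, 1.56 and 4.08 CPM. Grtp1 ran from 0.212 to 0.389 CPM with V3.0 and from 1.78 to 2.78 CPM with V3.1. Gm37401 ran from 0.156 to 0.311 CPM with V3.0 and from 1.09 to 1.49 CPM with V3.1. Grtp1 and Gm37401 passed the filter on low counts only through V3.1, where they are high, so their calls are not independent of that filter.

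Calls were not seen opposite every abundant partner. Of 4 genes opposite partners with some of the highest CPM, none was called by edgeR. They were Gm33858 opposite Cx3cr1 (log2 fold change −0.04, adjusted p = 0.948), R74862 opposite Cd81 (−0.17, adjusted p = 0.306), Med12l opposite P2ry12 (0.17, adjusted p = 0.550) and Hmgxb3 opposite Csf1r. Hmgxb3, which also meets its partner tail to tail, had a log2 fold change of −0.45 (adjusted p = 0.00993), short of the limit on the fold.

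**Figure D3:**
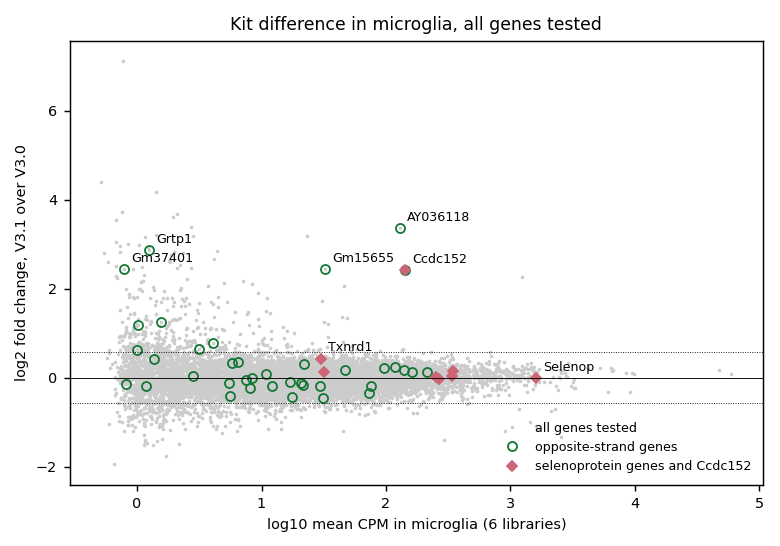
Log2 fold change of V3.1 over V3.0 (y axis) against mean level in microglia (log10 CPM, x axis) for the 12014 genes tested, with opposite-strand genes as circles and the selenoprotein genes and Ccdc152 as diamonds; dotted lines mark 0.58 either way. Ccdc152 and Gm15655 stand at 2.42 and 2.45 and Selenop at −0.01.

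Among microglia, border macrophages and neutrophils, Selenop and Ccdc152 were abundant in both kinds of macrophage and near absent from neutrophils, while the mean CPM of Gpx1 and Gpx4 was highest in neutrophils. Of the 9 genes, 8 passed the filter on low counts in the fit of cell types; Gpx3 did not. Border macrophages differed from microglia by call in 4 of these 8 genes, all higher, against 19% of the 7533 genes tested (11% called higher, 8.02% lower). Neutrophils differed from microglia in 7, against 68.8% of genes tested, with 4 higher (29.4%) and 3 lower (39.4%). They differed from border macrophages in 7, against 50.6%, with 3 higher (23.5%) and 4 lower (27.1%). By total UMIs the calls were 2 higher for border macrophages against microglia, 1 higher and 6 lower for neutrophils against microglia, and 1 higher and 4 lower for neutrophils against border macrophages. In both neutrophil comparisons most genes of any kind were called. The neutrophil fold changes depend on scaling: the 12 neutrophil markers summed to between 418911 and 461155 CPM there over the 6 libraries, which lowers the CPM of every other gene. The TMM scaling of edgeR, which sets the bulk of genes level, put the median log2 fold change of all genes at −0.33 for neutrophils against microglia, and scaling by total UMIs put it at −1.82. For neutrophils against border macrophages these medians were −0.20 and −1.30, and for border macrophages against microglia −0.08 and −0.47. By total UMIs 26.3%, 86.6% and 61.3% of genes were called for border macrophages against microglia, neutrophils against microglia and neutrophils against border macrophages. Fold changes are given with TMM first and with total UMIs second, and levels as CPM.

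Selenop was at 1573, 1699 and 1529 CPM in microglia of mice 1, 2 and 3, at 2416, 1869 and 1421 CPM in border macrophages and at 33.7, 42.4 and 31.5 CPM in neutrophils, both kits summed. Neutrophils stood far below both macrophage types, which overlapped. The log2 fold change of Selenop in neutrophils was −4.001 (SE 0.22, adjusted p = 1.02e-74) against microglia, or −5.49 by total UMIs, and −4.59 (SE 0.23, adjusted p = 2.79e-89) against border macrophages, or −5.72. Border macrophages were called higher than microglia by 0.59 (SE 0.16, adjusted p = 0.00171), just past the limit, but by total UMIs the value was 0.23 (adjusted p = 0.262) and the call was lost. It was also lost within either kit (0.55 with V3.0, 0.40 with V3.1), without mouse 1 (0.44), without mouse 2 (0.54), with TMMwsp scaling (0.56) and without the filter on low counts (0.40).

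Ccdc152 followed the same order. It was at 136, 119.5 and 198 CPM in microglia of mice 1, 2 and 3, at 288, 112 and 211 CPM in border macrophages, and at 4.82, 0 and 4.50 CPM in neutrophils, where 5 UMIs were found in all. Microglia and border macrophages overlapped, with a log2 fold change of 0.71 (SE 0.24, adjusted p = 0.0180) that was not called by total UMIs (0.33), by DESeq2 (adjusted p = 0.190), without mouse 1 (0.37) or with the V3.1 libraries alone (0.59, adjusted p = 0.137). In neutrophils Ccdc152 was lower than in microglia by −4.10 (SE 0.42, adjusted p = 1.14e-21), or −5.59, and than in border macrophages by −4.81 (SE 0.50, adjusted p = 6.57e-21), or −5.92. With the kits pooled, neutrophils held 2.25% of the microglial CPM of Selenop and 2.08% of that of Ccdc152. The summed microglial markers, whose UMIs in neutrophils would come from free RNA or doublets, stood there at 0.692% of their microglial level. In border macrophages they stood at 16.0%, where Selenop and Ccdc152 were at 118% and 115% of their microglial CPM, also with the kits pooled. The part of such RNA in the counts of either cell type was not tested.

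Of the peroxidases, Gpx1 ran the other way, and Gpx4 did so by call with TMM but not by total UMIs. Gpx1, which reduces hydrogen peroxide in the cytosol, was at 253, 283 and 264 CPM in microglia of mice 1, 2 and 3, at 526, 415 and 450.1 CPM in border macrophages and at 1032, 1091 and 1111 CPM in neutrophils. The 3 types did not overlap, and each neighbour in this order differed. Gpx1 was higher in border macrophages than in microglia by 1.14 (SE 0.20, adjusted p = 9.28e-08), or 0.75 by total UMIs, and higher again in neutrophils than in border macrophages by 2.36 (SE 0.19, adjusted p = 6.73e-34), or 1.27. Single libraries of border macrophages, of 5 to 30 cells, ranged from 234 to 946 CPM for Gpx1. Gpx4, which reduces lipid peroxides in membranes and protects cells from ferroptosis, was at 246, 273 and 235 CPM in microglia, 363, 247 and 239 CPM in border macrophages and 384, 330.5 and 407 CPM in neutrophils. Its rise in neutrophils over microglia was 2.06 (SE 0.11, adjusted p = 3.47e-81); by total UMIs it was 0.57 (adjusted p = 2.14e-07), just short of the limit. Against border macrophages Gpx4 in neutrophils was higher by 1.56 (SE 0.17, adjusted p = 2.68e-18), or 0.45 and not called. Microglia and border macrophages did not differ by call in Gpx4 (0.50, adjusted p = 0.0320, or 0.12).

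**Figure D4:**
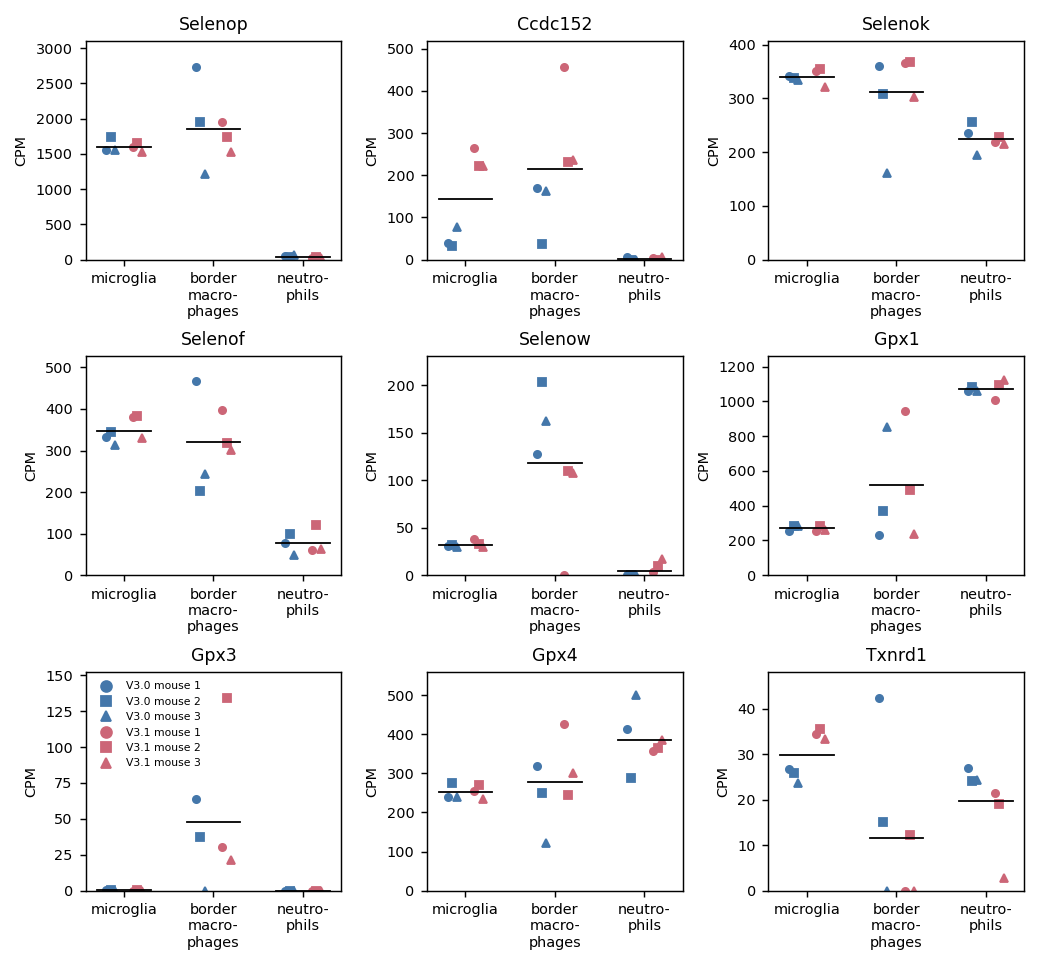
Level of each of the 9 genes (CPM, y axes start at 0) in microglia, border macrophages and neutrophils, each point a library and each horizontal line the mean of 6 libraries. Selenop and Ccdc152 are near 0 in neutrophils, Gpx1 is highest there, and Selenow and Gpx3 are highest in border macrophages, whose libraries of 5 to 30 cells scatter most.

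Selenow and Gpx3 were highest in border macrophages among these 3 types. Selenow, a small thioredoxin-like selenoprotein, was at 33.4, 31.8 and 29.9 CPM in microglia of mice 1, 2 and 3, at 75.1, 168 and 127 CPM in border macrophages and at 1.61, 5.30 and 13.5 CPM in neutrophils. The ranges of these sums did not overlap, but single libraries of border macrophages ran from 0, in the V3.1 library of mouse 1 with 9 cells, to 203 CPM. Border macrophages exceeded microglia by 2.46 (SE 0.32, adjusted p = 1.58e-13), or 2.08 by total UMIs, and neutrophils fell below border macrophages by −3.34 (SE 0.48, adjusted p = 3.74e-11), or −4.44. Neutrophils and microglia did not differ by call with TMM (−0.88, SE 0.47, adjusted p = 0.0870) and did by total UMIs (−2.36, adjusted p = 1.21e-08). Selenow in neutrophils rested on 10 UMIs. Gpx3 gave 21 UMIs in 82 border macrophages (57.5 CPM), 16 of them in mouse 2, and 10 UMIs in 18891 microglia (0.146 CPM), 9 of them in mouse 2. No UMI of Gpx3 was found in 265 neutrophils. The level of Gpx3 in border macrophages was 393 times that in microglia (95% counting interval 177 to 935) and at least 31.3 times the 1.84 CPM that 3 counts in all neutrophils would give. Within mouse 2 the ratio to microglia was 218 (90.5 to 559), and without mouse 2 it was 1396 (156 to 66024) from 5 UMIs against 1. With counts this low the difference of Gpx3 was not tested. Border macrophages also held 1530 UMIs of microglial, 237 of neutrophil, 132 of monocyte, 85 of B cell, 13 of oligodendrocyte, 5 of astrocyte and 5 of T and NK cell markers, and none of neuronal, endothelial, choroid plexus or erythroid markers. The part of such RNA in the Gpx3 counts was not tested.

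The endoplasmic reticulum proteins and Txnrd1 were less clear. Selenof, which binds the glycoprotein folding sensor, was at 353, 363 and 326 CPM in microglia of mice 1, 2 and 3, at 438, 247 and 281 CPM in border macrophages and at 69.0, 111 and 60.7 CPM in neutrophils. It was lower in neutrophils than in microglia by −0.61 (SE 0.15, adjusted p = 9.55e-05), or −2.11 by total UMIs, and the TMM call was lost without mouse 1 (−0.53) or mouse 3 (−0.50). It was lower than in border macrophages by −0.76 (SE 0.22, adjusted p = 0.00143), or −1.87, and that call was lost without mouse 1 (−0.46, adjusted p = 0.156). Border macrophages and microglia did not differ by call in Selenof, at 0.15 with TMM and −0.24 by total UMIs. Selenok, an endoplasmic reticulum membrane protein needed for protein palmitoylation, was at 346, 346 and 323 CPM in microglia, 363, 331 and 253 CPM in border macrophages and 226, 240.4 and 211 CPM in neutrophils. The direction of Selenok in neutrophils turned with scaling, from 0.91 (SE 0.12, adjusted p = 2.88e-14) to −0.58 (adjusted p = 7.62e-07) against microglia, and from 0.61 (adjusted p = 0.00185) to −0.49 (adjusted p = 0.0168) against border macrophages. Its value in border macrophages against microglia was 0.30 (adjusted p = 0.240), or −0.089.

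Txnrd1 turned with scaling too, from 0.73 (SE 0.34, adjusted p = 0.0466) to −0.76 (adjusted p = 0.0164) in neutrophils against microglia. It was at 30.03, 30.4 and 31.7 CPM in microglia and at 24.1, 21.2 and 6.75 CPM in neutrophils of mice 1, 2 and 3. In border macrophages 5 UMIs of Txnrd1 were found, 2, 3 and 0 in the 3 mice. It was not called there against microglia (−0.78, SE 0.66, adjusted p = 0.495, or −1.18), and neutrophils did not differ from border macrophages by call (1.52, adjusted p = 0.0563, or 0.42).

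**Figure D5:**
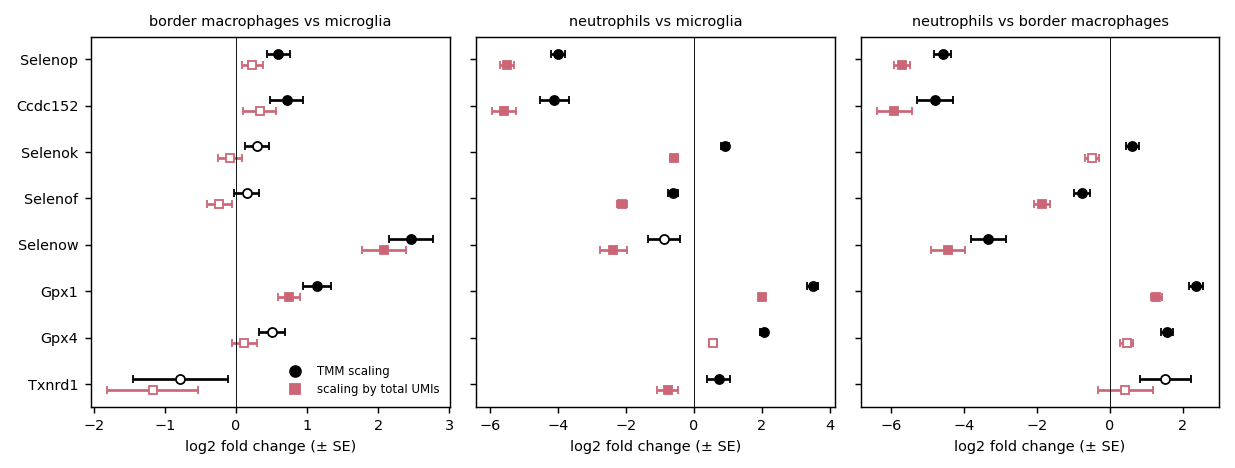
Log2 fold changes (x axis, bars are standard errors) of the 8 genes tested in the 3 comparisons of cell types, with TMM scaling (circles) and scaling by total UMIs (squares), filled where called. In neutrophils Selenok crosses 0 between the scalings in both comparisons and Txnrd1 against microglia, Selenok and Selenof do so uncalled in border macrophages against microglia, and Selenop stays at −4.001 or below in both neutrophil comparisons.

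Among all 24 selenoprotein genes, 17 were tested across cell types. Border macrophages against microglia gave 5 calls, all higher, where 11% of all genes were called higher, and a median of 0.30 against −0.08 for all genes. Besides Selenow, Gpx1 and Selenop these were Selenom (2.64, SE 0.54, adjusted p = 1.29e-05), which resides in the endoplasmic reticulum, and Msrb1 (1.496, SE 0.43, adjusted p = 0.00385), which repairs oxidised methionine. Selenom passed the filter on low counts only through border macrophages, where it was called higher. Its mean over the 6 libraries was 47.1 CPM there, 9.37 CPM in microglia and 0.527 CPM in neutrophils. By total UMIs the list had 4 higher and 1 lower, where 26.3% of all genes were called. Neutrophils against microglia gave 14 calls, where 68.8% of all genes were called. Of the 14, 8 were higher (29.4% of all genes) and 6 lower (39.4%), with a median of 0.56 against −0.33. By total UMIs 4 were higher and 11 lower, where 86.6% of all genes were called, with a median of −0.93 against −1.82. Msrb1 was the furthest up, from 21.8 to 27.1 CPM over the 6 libraries in microglia to between 1101 and 2000 CPM in neutrophils (7.29, SE 0.19, adjusted p = 3.49e-303, or 5.79). Sephs2, which makes the selenium donor for selenocysteine, was higher by 3.17 (adjusted p = 4.96e-62), or 1.68, and Selenon, linked to calcium handling in muscle, by 2.85 (adjusted p = 3.36e-21), or 1.36. Lower in neutrophils were the mitochondrial thioredoxin reductase Txnrd2 (−3.90, adjusted p = 5.54e-05, or −5.37), Selenos of the pathway that clears misfolded proteins (−2.68, adjusted p = 1.36e-33, or −4.17) and the phospholipid enzyme Selenoi (−2.07, adjusted p = 0.000541, or −3.56). Selenon passed the filter on low counts only through neutrophils, where it was called higher. Its mean was 35.6 CPM there, 14.4 CPM in microglia and 10.9 CPM in border macrophages. Neutrophils against border macrophages gave 15 calls, where 50.6% of all genes were called. Of the 15, 7 were higher (23.5% of all genes) and 8 lower (27.1%), with a median of 0.61 against −0.20. By total UMIs 3 were higher and 8 lower, where 61.3% of all genes were called, with a median of −0.49 against −1.30. Msrb1 (5.79, or 4.68), Sephs2 (3.32, or 2.21) and Selenon (2.49, or 1.39 and not called) led upward, and Selenom (−5.04, or −6.12) and Txnrd2 (−4.03, or −5.11) downward with Selenop and Selenow.

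Of the 8 genes that make and insert selenocysteine, 5 were tested across cell types. Border macrophages against microglia gave no call by edgeR or DESeq2, with a median of −0.10. An unadjusted edgeR p under 0.05 was reached by 1 gene, and by 2108 of all 7533 genes tested. Neutrophils were lower than microglia in 4 of 5, where 39.4% of all genes were called lower, with a median of −1.89 against −0.33 for all genes. By total UMIs they were lower in 5 of 5, where 86.6% of genes were called in either direction, with a median of −3.38 against −1.82. Pstk, the kinase that primes the serine on the selenocysteine tRNA, had 3498 UMIs in microglia and none in neutrophils, at least 27.8-fold lower in CPM with 3 counts as the floor over all neutrophils. The elongation factor Eefsec (−1.95, adjusted p = 0.00142, or −3.44), Trnau1ap (−1.89, adjusted p = 0.00538, or −3.38) and Secisbp2l (−1.03, adjusted p = 0.00102, or −2.53) made up the rest. Neutrophils against border macrophages gave 2 calls, where 27.1% of all genes were called lower. These were Pstk (at least 16.4-fold lower in CPM) and Trnau1ap (−2.99, edgeR adjusted p = 0.000537, or −4.09). By total UMIs 4 were lower, where 3804 of all 7533 genes were called lower.

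Of the 3 receptors of selenoprotein P, Lrp1 alone was abundant enough to test. Lrp1, a large scavenger receptor of the same family, ranged over the 6 libraries from 309 to 385 CPM in microglia, from 86.2 to 220 CPM in border macrophages and from 0 to 4.005 CPM in neutrophils. It was lower in neutrophils than in microglia by −6.62 (SE 0.41, adjusted p = 2.95e-57), or −8.11, and not called between border macrophages and microglia with TMM (−0.56), though called lower by total UMIs (−0.95). Lrp8 was at 3.16 to 12.2 CPM in neutrophils, at most 0.389 CPM in microglia and at 0 UMIs in border macrophages, where 3 counts would be 8.21 CPM, and Lrp2 had no UMI in any of the 3 types.

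Of the 24 thioredoxin, peroxiredoxin, glutathione and related antioxidant genes without selenocysteine, 19 were tested across cell types. Border macrophages exceeded microglia in 7, where 11% of all genes were called higher, with a median of 0.59 against −0.08 for all genes. By total UMIs 5 were higher and 1 lower, where 26.3% of all genes were called, with a median of 0.20 against −0.47. The 7 were Hmox1 (3.03, SE 0.27, adjusted p = 4.37e-27), which degrades haem, Txn1 (1.88), Prdx1 (1.67), Cat (1.48), Prdx5 (1.39), Txn2 (0.92) and Prdx4 (0.91). Neutrophils differed from microglia in 15, against 68.8% of all genes, 8 higher and 7 lower with a median of 0.11, or 6 higher and 11 lower by total UMIs, against 86.6%, with a median of −1.38. Higher were Gsr, the glutathione reductase (6.62, or 5.13), the cystine transporter Slc7a11 (6.23, or 4.74), Txn1 (5.82, or 4.33), Glrx (5.63, or 4.14), Prdx5 (5.18, or 3.69) and Prdx6 (4.07, or 2.58). Slc7a11 passed the filter on low counts only through neutrophils, at a mean of 49.6 CPM against 1.76 CPM in microglia and 0 in border macrophages. Lower were Gclc, of glutathione synthesis (−4.91, or −6.38), and Prdx4 (−4.13, or −5.61). Against border macrophages 14 were called in neutrophils, against 50.6% of all genes, 6 higher and 8 lower. By total UMIs 6 were higher and 12 lower, where 61.3% of all genes were called. Gsr (7.25, or 6.15), Glrx (4.77, or 3.68), Txn1 (3.95, or 2.84) and Prdx5 (3.795, or 2.67) were among the higher, with Slc7a11, which had no UMI in border macrophages and was at least 5.15-fold higher in CPM in neutrophils. Prdx4 (−5.04, or −6.13), Gclc (−4.03, or −5.11) and Prdx1 (−3.799, or −4.90) were among the lower. The opposite-strand genes other than Ccdc152 gave 4 calls of 15 tested in border macrophages against microglia (1 higher and 3 lower, where 19% of all genes were called). They gave 12 in neutrophils against microglia (4 higher and 8 lower, against 68.8%) and 9 in neutrophils against border macrophages (5 higher and 4 lower, against 50.6%). By total UMIs these were 5, 12 and 6, all lower, where 1416, 5633 and 3804 of all 7533 genes were called lower.

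Over the 18 sums of 6 libraries and 3 cell types, the genes whose log2(CPM + 1) was most like that of Selenop were P2rx7 (Pearson r = 0.99), Ctsb (0.99), Ntpcr (0.99), Maf (0.99) and Trf (0.99). Those most like Ccdc152 were Ehd4 (0.95), Snrpd1 (0.94), Ddx24 (0.94), AI506816 (0.94) and C3ar1 (0.94). The correlation of Selenop with Ccdc152 was 0.89, rank 693 among the genes compared with Selenop. These values describe the 18 sums, which share animals and libraries, and mostly separate neutrophils from the rest.

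Mouse 2, the animal with inhibitors, had the highest microglial Selenop of each kit, 1742 CPM against 1557 and 1558 with V3.0 and 1649 CPM against 1595 and 1524 with V3.1. Gpx4 was also highest there, at 275 and 271 CPM against 234 to 254 CPM in the 4 libraries without inhibitors. Ccdc152 was at 32.1 and 221 CPM in mouse 2, the lowest of V3.0 and level with mouse 3 in V3.1. With 1 animal in the condition, inhibitors and animal cannot be told apart and no test was made.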

How the data were processed

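The authors sequenced the 6 libraries on a NextSeq 500 flow cell and made the count tables with bcl2fastq and Cell Ranger 5.0.0 against mm10 (GRCm38, filtered Ensembl annotation). The deposited values are raw UMI counts per gene and barcode called as a cell, 1 table per library. A barcode was kept when it held 1000 to 4000 genes, no more than 12000 UMIs and a mitochondrial share up to 15%; the study filtered on these 3 measures with limits not given in the sources used here. Cells were gated on markers with a UMI: at least 7 of 10 for microglia, 4 of 10 for border macrophages and 8 of 12 for neutrophils, with limits on markers of the other types. The gate limits were chosen after seeing marker counts: 395 microglia, 37 border macrophages and 14 neutrophils lay at the limit, and 78, 20 and 5 cells lay 1 marker short of it. No doublet caller was applied beyond the gate and the upper limits; an alternative left out the top 4% of doublet scores (scanpy 1.11.5).

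UMIs were summed per library (kit, 3 against 3) or per mouse and cell type (mouse as a block) and tested two-sided by edgeR 4.0.16 quasi-likelihood in R 4.3.3, with TMM scaling, filterByExpr and Benjamini-Hochberg adjustment over all genes tested. A gene was called at an adjusted p under 0.05 and a log2 fold change beyond 0.58, the thresholds of the study. The script was checked on simulated counts. Same-numbered libraries come from the same mouse, and their deviations from the kit means correlated at 0.36, 0.48 and 0.19 in mice 1, 2 and 3 over 500 genes. The numbers therefore pair the libraries. Positions and ends come from GENCODE vM21, where 32158 of the 32285 gene IDs matched. The genes, lists and tests were chosen with earlier results of these data known. Named genes were the 9 genes, called genes of each list (the 8 with the largest fold change where more were called), the 5 opposite-strand genes of the most abundant partners (1 of which is not reported here), and the 5 genes most like Selenop or Ccdc152 among those with a mean of at least 20 CPM. Maf and the opposite-strand summary by partner were added after their values were seen. The strand setting of the counting is not given in the sources used here. Alternatives were DESeq2 1.42.0, no filter on low counts, a laxer cell filter (at least 500 genes), a stricter gate, the block, and each mouse left out; scaling by total UMIs, TMMwsp and fits within a kit were added after seeing the data. Binomial and Poisson intervals are exact at 95% and cover counting error only.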

Additional observations from a re-analysis of the deposited data

Results flagged for a closer look

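Kit and cell type were not crossed in any test, and 3 genes are given here for the kits within the smaller classes. The share of all genes with such orders in these classes is not given here. Selenow in border macrophages was lower with V3.1 in each mouse, at 127, 203 and 162 CPM in mice 1, 2 and 3 with V3.0 and 0, 110.0 and 108 CPM with V3.1, a ratio of means of 0.442. In neutrophils its order was the opposite, with no UMI in the V3.0 libraries and 10 in the V3.1 libraries. The difference was not tested and rests on 51 UMIs in border macrophages. Txnrd1 was higher with V3.1 in microglia of every mouse, with a ratio of means of 1.35, and lower in neutrophils of every mouse, with a ratio of 0.574 from 16 UMIs with V3.0 and 14 with V3.1. This difference was not tested either. Selenop in neutrophils was lower with V3.1 in every mouse, at 47.1, 44.1 and 61.0 CPM with V3.0 and 21.5, 41.1 and 24.8 CPM with V3.1, a ratio of means of 0.575 from 30 and 29 UMIs that was not tested.

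The gated monocytes, which enter no comparison, held more Selenow and Gpx1, pooled over libraries, than any of the 18 sums of the other cell types. The share of all genes for which this holds is not given here. Selenow was at 269.1 CPM (272 UMIs, 193 to 303 CPM over the 6 libraries), against a highest value of 203 CPM in the other types. The lowest monocyte library of Selenow was therefore below that value. Gpx1 was at 3335 CPM (3371 UMIs, 2941 to 3492 CPM), against a highest value of 1122 CPM.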

How the results depend on the processing

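The ratio of Ccdc152 per 1000 Selenop UMIs stayed between 4.07 and 6.92 times higher with V3.1 in all alternatives tried, 4.32 among them with every barcode kept. The kit count of 368 genes ranged from 147 to 415 with a mouse left out (177 without mouse 1, 147 without mouse 2), and was 313 without the V3.0 library of mouse 3. With the mouse as a block the pairing raised the kit count to 549 and changed no call of the 7 selenoprotein genes tested. Without the block the cell type counts were 1437, 5219 and 3851. Leaving out a mouse gave 876 to 1283 genes for border macrophages against microglia, 4535 to 4888 for neutrophils against microglia and 2811 to 3444 for neutrophils against border macrophages, against 1434, 5179 and 3814. Within V3.0 these were 871, 3203 and 2263, and within V3.1 865 and 2408 for the first and the last, with fewer UMIs and genes tested (5037 and 5689 of 7533). By total UMIs the split of higher to lower calls went from 830 and 604 to 563 and 1416, from 2213 and 2966 to 893 and 5633, and from 1773 and 2041 to 816 and 3804. Among values of the single genes under the alternatives, 346 kept direction and call, 31 lost the call, 4 gained it and 12 turned sign.

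Turned signs in the kit fit were all near 0: leaving out a mouse moved Selenop between −0.041 and 0.021, Gpx1 between −0.040 and 0.010 and Gpx4 between −0.023 and 0.043. Gpx4 was −0.02 without the V3.0 library of mouse 3, and Selenok −0.0034 with at least 500 genes per cell. In border macrophages against microglia, Selenok was −0.089 by total UMIs, and Selenof −0.027 without the filter, −0.24 by total UMIs and between −0.067 (without mouse 1) and 0.36 with a mouse left out. In neutrophils by total UMIs, Selenok was −0.58 and Txnrd1 −0.76 against microglia, and Selenok −0.49 against border macrophages. Apart from the scaling, the cause was not tested. Selenow in neutrophils, called in 3 alternatives against microglia, rests on 10 UMIs. Gpx3, Txnrd1 and Ccdc152 in the smaller classes are limited by counts of 0 to 62 UMIs.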

Other observations

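In the 167 gated monocytes, Selenop was at 287 CPM (213 to 387 CPM over the 6 libraries), below the lowest library of microglia and of border macrophages and above the highest of neutrophils, at 61.0 CPM. Gpx4 was at 451 CPM (383 to 530 CPM) and Txnrd1 at 32.6 CPM (12.6 to 47.3 CPM). Gpx3 had 4 UMIs. Monocytes held 1 Ccdc152 UMI to 156 of Selenop with V3.0, or 6.41 per 1000 (0.161 to 36.2), and 14 to 134 with V3.1, or 104 per 1000 (55.6 to 182). In the library with the most neutrophil marker UMIs, neutrophil markers reached 20828 CPM of the monocyte sum, and their part in these values was not tested.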
